A study of Mus musculus with 947 samples.

Results

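The small nuclear RNAs of mice that carry an Rnu name were followed across tissues, ages and joined mice. Members were all listed RNAs whose gene name starts with Rnu, except the Rnu3 rows, which are nucleolar U3 RNAs. The rule took 12 rows in each cohort, and Rnu1b1 and Rnu1b2 held the same value in every library, which left 11 distinct RNAs of 7490 distinct rows in the aging cohort and of 4894 in the parabiosis cohort. Grouped by U number they were U1 (Rnu1a1, Rnu1b1/Rnu1b2, Rnu1b6), U2 (Rnu2-10), U5 (Rnu5g), U6 (Rnu6, Rnu6-ps2), U11 (Rnu11), U12 (Rnu12) and U7 (Rnu7). The 11th, Rnu73b, has an Rnu name but is annotated as a small nucleolar RNA inside Rps3a1, a ribosomal protein gene, and is described apart. U4 and the U4 and U6 counterparts of the minor spliceosome were not analysed here.

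The data were small RNA sequencing libraries from 2 cohorts. The aging cohort held C57BL/6JN mice, of which 768 libraries from 16 tissues were used; the 10 ages were 1 month and then every 3 months between 3 and 27, and females were present at 21 months and younger. The parabiosis cohort held males that were joined by surgery for 5 weeks and shared a circulation, C57BL/6JN or C57BL/6J mice and, for the 4-month animals, mice with a GFP transgene driven by the ubiquitin C promoter, with 176 libraries of gonadal fat (GAT), heart, kidney, limb muscle, liver and mesenteric fat (MAT). Groups held 6 to 8 libraries a tissue: isochronic young (IY, 3 or 4.5 months, joined to a mouse of the same age), heterochronic young (HY, 4 months, joined to an aged mouse), heterochronic aged (HA, 19 months) and isochronic aged (IA, 19 months). Every mouse of that cohort was joined, so no group shows an unjoined animal, and in HY the strain and the joining to an aged mouse cannot be told apart. The paper lists 19-month males of both C57BL/6JN and C57BL/6J. How these were divided between HA and IA is not given here, so the substrain may differ between the aged groups. Brown fat (BAT) and subcutaneous fat (SCAT) were the other adipose depots. Depth ran from 2.29 to 166.9 M mapped reads (M for 1000000) with a median of 20.1 M in the aging cohort, and from 9.20 to 47.6 M with a median of 20.15 M in the parabiosis cohort.

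U1, U2, U5 and U6, with U4, are the RNA cores of the major spliceosome, which removes nearly all introns from messenger RNA precursors. U1 pairs with the 5′ end of an intron, U2 with its branch point, U6 takes over the 5′ end before catalysis, and U5 holds the exons together. U11 and U12 do the work of U1 and U2 for a small class of introns in the minor spliceosome. U7 does not splice: it pairs with the precursors of the replication-dependent histone messages and directs the cut that forms their 3′ ends, and histone messages are made mainly in dividing cells. Most of these RNAs are bound by a ring of Sm proteins at a short uridine-rich site, whereas U6 is bound by a related ring at its 3′ end. All of them are longer than the reads, so a value counts fragments of the RNA and not whole molecules.

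The sequences of the U1 copies, which decide how their reads can be told apart, and those of the minor and histone RNAs, were read from the GENCODE transcripts of GRCm38 and are given 5′ to 3′ as DNA. Capitals mark short motifs found by an exact search of the transcript's own strand: ACTTACCTG at the start of U1, which pairs with the 5′ end of introns, GAGTAAGGA of U12, which pairs with the branch point, TCTTTT of U7, which pairs with histone precursors, and the Sm site AATTTNT. For U73b they mark the letters of box C (TGATGA) and box D (CTGA), short boxes near the ends of a C/D small nucleolar RNA. CTGA matched at 2 places, of which the one near the 3′ end is where box D lies, and the inner one is a match of letters only. Motifs did not overlap within a sequence.
Rnu1b1: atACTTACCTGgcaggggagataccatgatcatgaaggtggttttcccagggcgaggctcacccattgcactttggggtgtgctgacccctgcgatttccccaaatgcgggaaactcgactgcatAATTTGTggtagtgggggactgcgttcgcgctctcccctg
Rnu1b6: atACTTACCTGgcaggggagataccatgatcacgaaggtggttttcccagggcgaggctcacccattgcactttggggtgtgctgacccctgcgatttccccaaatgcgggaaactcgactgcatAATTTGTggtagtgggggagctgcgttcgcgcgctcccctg
Rnu11: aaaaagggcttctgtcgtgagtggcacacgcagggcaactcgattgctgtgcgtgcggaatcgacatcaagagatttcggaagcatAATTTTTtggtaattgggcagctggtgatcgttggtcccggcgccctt
Rnu12: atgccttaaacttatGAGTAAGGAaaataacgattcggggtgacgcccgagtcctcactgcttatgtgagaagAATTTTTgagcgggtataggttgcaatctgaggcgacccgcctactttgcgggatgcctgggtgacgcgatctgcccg
Rnu7: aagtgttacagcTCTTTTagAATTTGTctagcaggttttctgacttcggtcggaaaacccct
Rnu73b: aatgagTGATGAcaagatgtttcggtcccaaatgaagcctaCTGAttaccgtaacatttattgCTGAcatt

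The U1 rows lie on chromosome 3 (GRCm38), Rnu1b1 at chr3:96359953-96360117 on the minus strand, Rnu1b2 at chr3:96374021-96374185 on the plus strand and Rnu1b6 at chr3:96460024-96460189 on the minus strand, and on chromosome 11, where Rnu1a1 lies at chr11:87422867-87423030 on the plus strand inside an intron of Tex14. Counted from 1 at the 5′ end of Rnu1b1, Rnu1a1 differed from it by T33C, C60T, C62T, T74C, G75C, G78A and 1 gap base, and the last 87 bases were identical. Rnu1b6 differed by T33C, T157G and 1 gap base, and only its last 8 bases were identical with those of Rnu1b1. Rnu2-10 lies at chr11:101658238-101658428 on the plus strand and Rnu5g at chr9:65201726-65201841 on the minus strand. Rnu11 lies at chr4:132270080-132270213 on the minus strand, over an exon of Gm28872 on the other strand, and Rnu12 at chr15:83149644-83149794 on the plus strand. Rnu7 lies at chr6:124741225-124741286 on the minus strand and overlaps an exon of Grcc10 on its own strand, so reads of that message could count for it. Rnu73b lies at chr3:86140618-86140688 on the minus strand.

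Copies of these RNAs are many, and rows with an identical sequence held identical values. How reads that match several unlike rows were assigned is not given in the sources used here. Rnu6 had the same values as 41 other listed rows, and 482 of 6257 other listed RNAs with a sequence shared a 20-base stretch with it. The stretches of 20 bases were shared with 393 other RNAs for Rnu6-ps2, 73 for Rnu1a1, 72 for Rnu1b1, 70 for Rnu1b6, 35 for Rnu2-10, 10 for Rnu5g, 4 for Rnu11, 3 for Rnu12, 2 for Rnu7 and 0 for Rnu73b. Rnu1b1 shared 60.3% of its 20-base stretches with Rnu1a1 and 71.9% with Rnu1b6, whereas Rnu6 shared 23.9% with Rnu6-ps2. Reads of U1, U2 and U6 rows may therefore stem from other copies, and differences between their copies are uncertain. U11, U12 and U7 shared stretches with at most 4 other RNAs.

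Some libraries stood apart before any comparison was made. Brain libraries with title numbers 25 to 36 (12 libraries) and kidney libraries with title numbers 1 to 12 (9 libraries) were kept apart by the rule. In both, all 10 U snRNA rows lay above every other library of the tissue, and Rnu2-10 reached 39560 to 95620 reads per 1000000 mapped reads (rpmm) in those brain libraries against 1202 to 6637 in the other 39. Lung libraries 37 to 48 (12 libraries) and spleen libraries 37 to 56 (20 libraries) were also high, which was seen only after the values were examined, so the main spleen and lung values below are also given without them. Single libraries were far below their tissue. In 1 lung (number 55), 1 pancreas (number 2) and 1 spleen library (number 1), at least 8 of the 10 rows were under 10% of the tissue median. Of 10 marker miRNAs, 9 were highest in the labelled tissue, miR-192-5p being the exception, and the miRNA profile of 9 aging and 4 parabiosis libraries was closest to that of another tissue, 4 and 4 of them between fat depots. No member was at 0 in any library.

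U1 was the most abundant of these RNAs and Rnu6-ps2, which RefSeq names a pseudogene, the least. Over the 747 aging libraries outside the brain and kidney sets, the median level was 7410 rpmm for Rnu1a1 (range 67.9 to 69400), 7069 for Rnu1b1, 3555 for Rnu2-10, 778.4 for Rnu6 and 765.7 for Rnu5g. It was 238.2 rpmm for Rnu1b6, 220.4 for Rnu11, 160.1 for Rnu12, 89.9 for Rnu7 and 14.7 for Rnu6-ps2. Set per 100 bases of RNA, the medians were 4518 for Rnu1a1, 1861 for Rnu2-10, 727.5 for Rnu6, 660.1 for Rnu5g, 164.5 for Rnu11, 145.1 for Rnu7 and 106 for Rnu12. This scale allows for length only if fragments are read evenly along each RNA, which was not checked. On that scale Rnu11, U1's counterpart, was far below U1, and the short Rnu7 lay between the 2 minor-spliceosome RNAs. Rnu73b stood at 1285 rpmm, or 1810 per 100 bases, near Rnu2-10.

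Tissue set these levels more widely for U7 than for U1. The highest and the lowest tissue median differed 17.2-fold for Rnu7, 13.9-fold for Rnu6-ps2, 9.09-fold for Rnu6, 8.82-fold for Rnu11, 6.11-fold for Rnu5g, 5.90-fold for Rnu2-10, 5.87-fold for Rnu73b, 5.06-fold for Rnu1b6, 4.08-fold for Rnu1b1, 4.05-fold for Rnu1a1 and 3.71-fold for Rnu12. Without lung libraries 37 to 48 and spleen libraries 37 to 56 it was 7.83-fold for Rnu6, 4.95-fold for Rnu2-10, 8.64-fold for Rnu11 and 7.06-fold for Rnu73b, and the same as before for the other 7. The median over 2421 RNAs that reached a tissue median of 10 rpmm was 9.67-fold, so most of the snRNAs varied less between tissues than the RNA in the middle of that list. Across the 16 tissues the rank correlation of tissue medians was 0.982 between Rnu1a1 and Rnu1b1 and 0.788 between Rnu11 and Rnu7. It was 0.432 between Rnu6 and Rnu6-ps2 and 0.632 between Rnu1a1 and Rnu1b6, so these minor copies ordered the tissues differently from the main rows. The points share libraries and scaling, copies of the same U number may share reads, and no test was made.

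**Figure D1:**
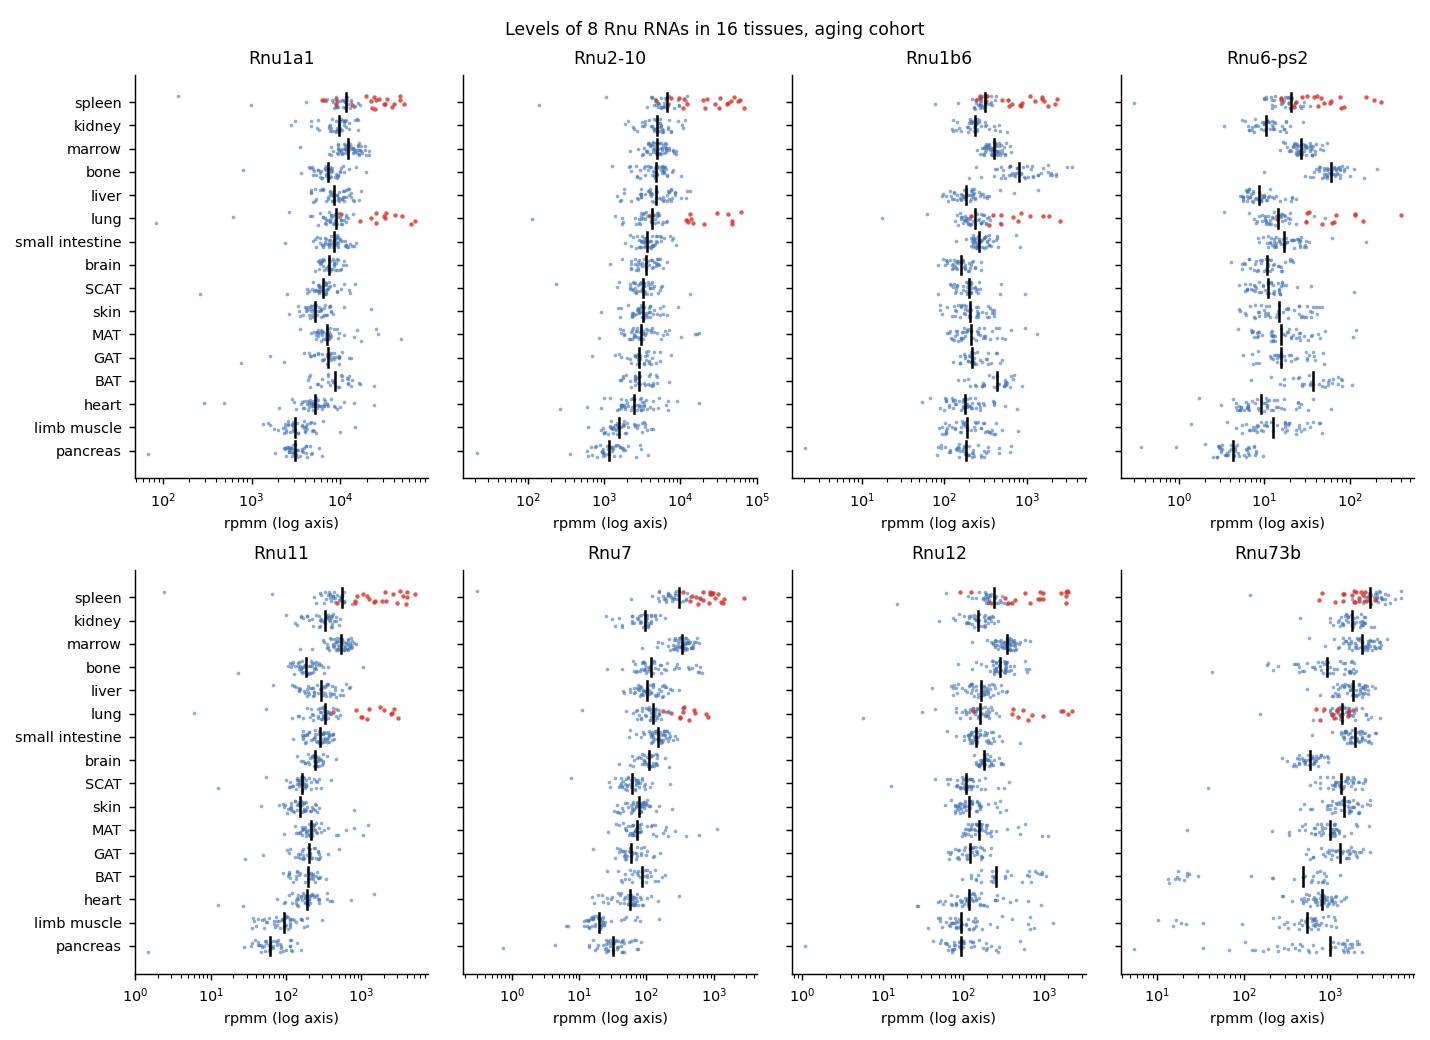
Levels of 8 of the RNAs in rpmm (log axis) in every aging library by tissue, with the brain and kidney sets left out. Each point is a library, red points are lung libraries 37 to 48 and spleen libraries 37 to 56, and the black bar is the tissue median. Rnu7 runs from a median of 19.97 rpmm in limb muscle to 342.9 in marrow, and Rnu73b forms a separate low cluster in BAT.

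Each tissue was compared with the mean of the other 15 with limma on log2(rpmm + 1), which understates differences at low levels, and a difference was called at an adjusted p under 0.05 (Benjamini-Hochberg) and a log2 difference over 1. Of 160 tests of the 10 U snRNA rows, 10 were called higher and 15 lower, in 6 of the 16 tissues. Over all RNAs, 8.22% of tests were called higher and 6.99% lower, and the members' counts were not tested against these shares. In tissue samples, fewer cells of a type and less RNA per cell cannot be told apart. The paper describes dissecting these organs from the same mice, so tissues of 1 mouse are among these libraries. The labels do not name the mouse. The model and the permutation tests between tissues treated all libraries as separate, so their p-values ignore this pairing.

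The widest tissue differences among the snRNA rows were those of U7, the histone RNA. Rnu7 had a median of 342.9 rpmm in marrow, 301.7 in spleen and 150.2 in small intestine, against 19.97 in limb muscle, 32.1 in pancreas and 57.96 in heart. Marrow and spleen, blood-forming and lymphoid organs, held the top ranks, spleen with 228.6 rpmm also without libraries 37 to 56, and the skeletal muscle held the last. Relative to the other tissues the log2 difference was 1.96 in marrow (SE 0.117, adjusted p = 1.22e-52 by limma), 2.02 in spleen (SE 0.118) and -2.20 in limb muscle (SE 0.127). Without spleen libraries 37 to 56 the spleen difference was 1.30 and still called. The calls in marrow, spleen and limb muscle also held when libraries were scaled to their miRNA reads or by median ratios. Among neighbours in the order of tissues, 6 of 15 pairs differed for Rnu7 (permutation test of the mean log2 level, adjusted over 165 pairs), among them pancreas over limb muscle by 0.51 on the log2 scale (adjusted p = 0.0402). The gap of spleen over small intestine, 1.21 on that scale, was 0.46 without the high libraries and missed the threshold (adjusted p = 0.0761).

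Marrow gave U11 and U12, the minor-spliceosome RNAs, their highest or near-highest levels. Rnu11 had a median of 534.8 rpmm in marrow and 546.6 in spleen, then 327.8 in kidney, and 61.9 in pancreas, the lowest. Without spleen libraries 37 to 56 the spleen median was 419.2 rpmm and marrow ranked first. Its log2 difference was 1.33 in marrow (SE 0.119) and 1.69 in spleen (SE 0.120), and the latter fell to 0.86 and lost its call without spleen libraries 37 to 56. Marrow exceeded kidney, the next tissue below, by 0.80 on the log2 scale (adjusted p = 0.000165 by the permutation test). Rnu12 had its highest median in marrow, 349.8 rpmm, with a log2 difference of 1.04 (SE 0.120), followed by bone at 290.0 and BAT at 257.9. The lowest medians of Rnu12 were 94.3 rpmm in pancreas and 95.1 in limb muscle. Neither marrow call of Rnu11 or Rnu12 held under median-ratio scaling, where the log2 differences were 0.64 and 0.35.

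Among the major-spliceosome RNAs the spleen ranked high and limb muscle and pancreas low. Rnu6 had a median of 1956 rpmm in spleen (1684 without libraries 37 to 56), 1295 in small intestine and 215.2 in pancreas. Its spleen difference was 1.63 on the log2 scale (SE 0.110), and 1.08 without the high libraries. Rnu2-10 had a median of 6728 rpmm in spleen (5640 without those libraries) against 4952 in kidney, the next below, and 1140 in pancreas, with a spleen difference of 1.44 that became 0.71 and lost its call without them. Spleen exceeded kidney for Rnu2-10 by 0.87 on the log2 scale, and by 0.10 without them (adjusted p = 0.853). Rnu5g, the loop RNA that holds exon ends, was highest in liver (1385 rpmm) and lowest in pancreas (226.9 rpmm). Rnu1a1 and Rnu1b1 were highest in marrow, at 12360 and 12020 rpmm, and were called higher in no tissue.

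Limb muscle and pancreas were low in nearly all rows. In limb muscle 7 of 10 rows were called lower, with log2 differences of -2.20 for Rnu7, -1.47 for Rnu6, -1.36 for Rnu11, -1.25 for Rnu5g, -1.17 for Rnu1b1, -1.14 for Rnu1a1 and -1.07 for Rnu2-10. Only the calls of Rnu6 and Rnu7 held under both other scalings. In pancreas 8 of 10 rows were called lower, from -1.34 for Rnu1a1 and Rnu1b1 to -2.14 for Rnu6 (SE 0.121), while Rnu1b6 and Rnu12 were not called. The pancreas result depended on the scaling: on miRNA reads none of the 8 was called, and Rnu1a1 and Rnu1b1 turned to 0.14 on the log2 scale. In the pancreas 22.74% of all RNAs tested were called lower, and in limb muscle 9.77%. The miRNA scaling called 52 of the 160 tests over all tissues, 30 higher and 22 lower, and the median-ratio scaling 13, 8 higher and 5 lower. Of 82736 tests of all RNAs, the miRNA scaling called 10071 higher and 8313 lower, and the median-ratio scaling 5762 higher and 5035 lower.

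In the remaining 10 tissues no snRNA row was called. All 10 rows lay below the mean of the other tissues in heart, skin and SCAT, with median log2 differences of -0.53, -0.37 and -0.45. All 10 lay above it in lung, with a median of 0.51, and 7 of 10 with a median of 0.05 without lung libraries 37 to 48.

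**Figure D2:**
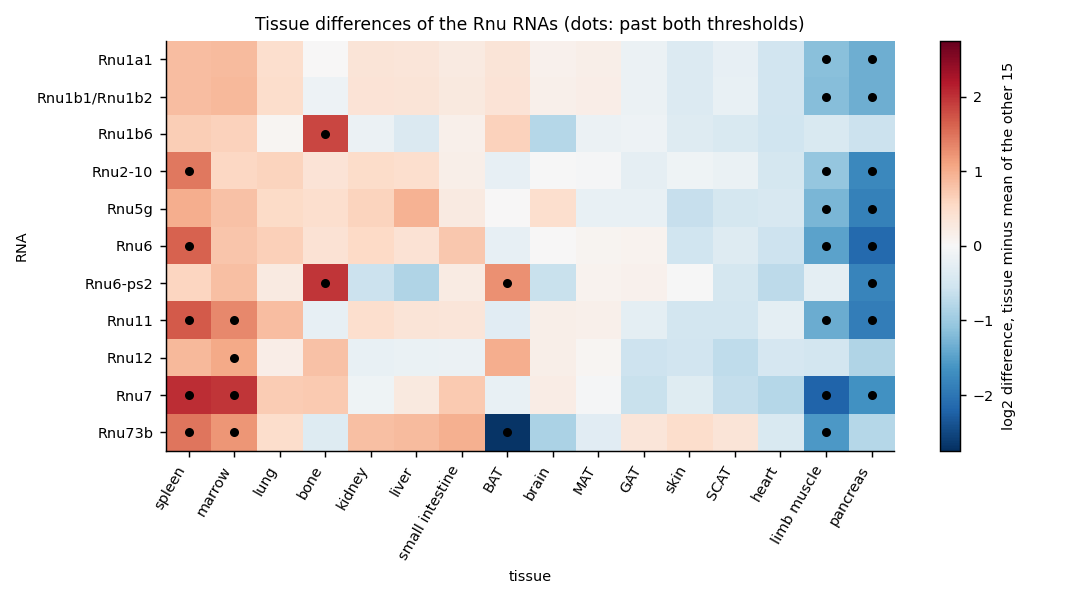
Log2 difference of each RNA (rows) in each tissue (columns) from the mean of the other 15 tissues, with red higher, blue lower and a dot where the adjusted p is under 0.05 and the difference over 1. Spleen and marrow stand at the high end and limb muscle and pancreas at the low end, and bone has dots for Rnu1b6 and Rnu6-ps2.

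In bone the rows called were the minor copies of U1 and U6, both higher. Rnu1b6 had a median of 805.9 rpmm in bone, 430.3 in BAT and 159.3 in brain, the lowest. Its bone difference was 1.85 on the log2 scale (SE 0.112), and bone exceeded BAT by 1.13 (adjusted p = 0.000165 by the permutation test). Rnu6-ps2 had a median of 60.3 rpmm in bone, 37.1 in BAT and 4.35 in pancreas, with differences of 1.96 in bone (SE 0.120) and 1.26 in BAT (SE 0.148). The bone calls held under both other scalings, and the BAT call did not hold under median ratios (0.90). In bone 30.21% of all RNAs were called higher, and in BAT 20.73%. The main rows did not share this: Rnu1b1 in bone was at 6288 rpmm and Rnu6 at 908.0 rpmm, neither called.

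Ratios within a library do not depend on its scaling and showed the same. Rnu1b6 amounted to 11.4% of Rnu1b1 in bone at the median, 6.32% in limb muscle, 6.29% in pancreas, 4.50% in BAT and 2.12% in liver. Rnu6-ps2 amounted to 7.15% of Rnu6 in BAT, 6.59% in bone and 0.876% in liver. Rnu1b1 stood at 96.1% of Rnu1a1 over all 747 libraries, between 90.3% in bone and 96.9% in marrow. U12 was 156.3% of U11 in pancreas, 152.7% in bone and 141.9% in BAT, against 45.8% in kidney and 45.96% in spleen (48.46% without libraries 37 to 56), so the order of the minor-spliceosome RNAs turned between tissues. U7 counted 10.3 reads per 1000 reads of the major rows in marrow, 8.82 in spleen (7.97 without libraries 37 to 56), 6.83 in small intestine and 2.25 in limb muscle.

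The level of the minor-spliceosome rows relative to the major ones was taken within each library. For each library the summed U11 and U12 rpmm were set over the summed U1, U2, U5 and U6 rpmm. The median was 20.8 per 1000 over all tissues, from 16.5 in SCAT to 26.15 in marrow, and 17.2 in the parabiosis cohort, and single aging libraries ran from 9.3 to 98.5. In spleen it was 24.8, and 22.8 without libraries 37 to 56. It was 27.4 in the brain libraries kept apart against 21.4 in the others, and 24.3 in the kidney libraries kept apart against 18.2. The rank correlation of this ratio with age ran from -0.294 in brain to 0.136 in kidney over the 16 tissues. A ratio of sums is led by U1 and U2, and no p was computed for it. Reads that the U1 rows share may count in several of them, and U4 and the minor counterparts of U4 and U6 are not in the ratio. It is therefore a ratio of fragment counts and not of spliceosomes. With geometric means of the rows in place of sums the order of tissues changed: bone, at 23.1 above the overall median by sums, was lowest by geometric means at 173.9 per 1000 against 225.9 over all tissues, and marrow was highest by both (292.8).

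The brain and kidney libraries kept apart were far above the rest of their tissue in all 10 rows, and their folds exceeded the fold between the highest and lowest tissue for 9 of 10 rows in brain and 6 of 10 in kidney. In brain the fold of medians was 20.4 for Rnu2-10, 19.6 for Rnu12, 17.1 for Rnu6-ps2 and Rnu1b6, 14.4 for Rnu5g, 11.4 for Rnu6, 10.8 for Rnu11, 10.2 for Rnu7, 8.87 for Rnu1a1 and 8.84 for Rnu1b1. In kidney it was 13.7 for Rnu12, 10.01 for Rnu2-10, 9.80 for Rnu5g, 8.96 for Rnu1b6, 6.71 for Rnu6-ps2, 6.18 for Rnu7, 5.69 for Rnu11, 4.62 for Rnu1a1, 4.55 for Rnu1b1 and 4.35 for Rnu6. In both tissues U12 and U2 moved more than U11, U1 and U6, so the proportions among the snRNAs changed too: Rnu2-10 was 108.0% of Rnu1a1 in those brain libraries against 47.8% in the others, and 99.4% against 54.4% in kidney. In rpmm Rnu73b went the other way, at 187.2 against 575.8 in brain and 763.1 against 1779 in kidney, with ranges that overlapped.

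These sets were singled out by snRNA levels, so these folds are a description without a test. Of 3504 RNAs in brain, 26.74% lay above every other library in the set and 12.19% below, and of 3445 in kidney 18.11% and 1.60%. The summed miRNA level was lower in the sets, at a median of 199300 rpmm against 601000 in brain and 116700 against 407700 in kidney. Libraries scaled to miRNA reads gave the U snRNA rows folds of 24.9 to 65.6 in brain and 14.8 to 44.75 in kidney. On that scale the fold of Rnu73b was 0.911 in brain and 1.36 in kidney, so its lower level in the sets depended on the scaling. The sets mixed 8 ages each and were spread over 4 plates of the sample annotation in brain and 3 in kidney. Mapped reads in them were 8.69 to 29.4 M in brain against 10.9 to 35.2 M in the others. In kidney they were 12.9 to 21.8 M against 3.16 to 38.6 M. Their part in the result was not tested.

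Contiguous title numbers were high in lung and spleen too. When the libraries of each tissue were taken in sets of 12 by title number, 4 of 79 sets had at least 8 of 10 rows 3-fold or more above the rest of the tissue: brain 25 to 36, kidney 1 to 12, lung 37 to 48 (3.51 to 4.89-fold in 8 rows) and spleen 49 to 56 (3.59 to 8.33-fold in 8 rows). Rnu2-10 had a median of 17440 rpmm in lung libraries 37 to 48 against 4130 in the other 43, and 25530 in spleen libraries 37 to 56 against 5640 in the other 35. The ranges overlapped in both tissues. Rnu73b was lower in those libraries, at 1139 against 1455 rpmm in lung and 1943 against 3386 in spleen.

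**Figure D3:**
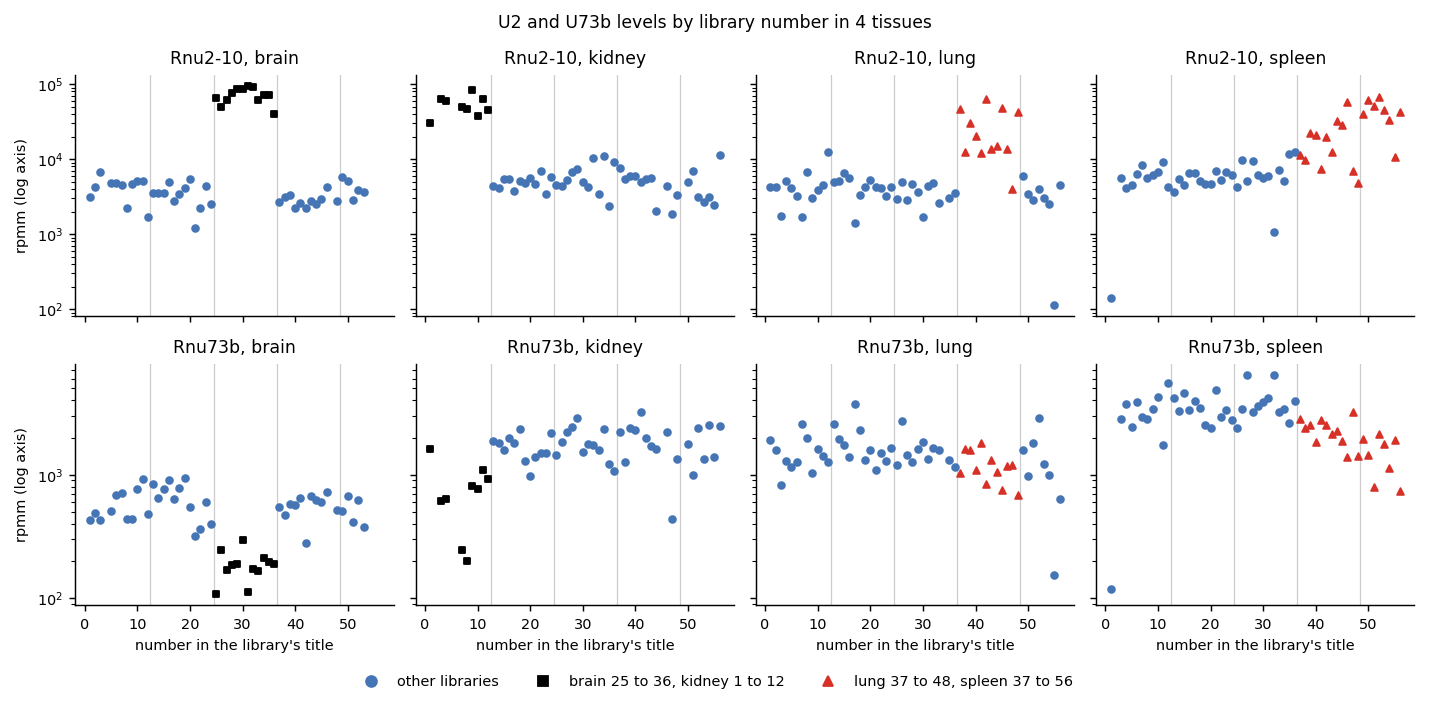
Rnu2-10 (upper panels) and Rnu73b (lower panels) in rpmm on a log axis against the number in the library's title, in brain, kidney, lung and spleen, with grey lines between sets of 12. Rnu2-10 in brain libraries 25 to 36 and kidney libraries 1 to 12 (black squares) lies above all other libraries of the tissue, and lung 37 to 48 and spleen 37 to 56 (red triangles) reach higher than any other library of theirs, while the median of Rnu73b is lower in all 4 sets.

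U73b, the box C/D RNA, ranked the tissues much as some of the U rows did and unlike others. The rank correlation of its tissue medians was 0.721 with Rnu6 and 0.706 with Rnu2-10, and 0.191 with Rnu12 and 0.0824 with Rnu6-ps2. It was highest in spleen (2815 rpmm, and 3386 without libraries 37 to 56), marrow (2320 rpmm) and small intestine (1901 rpmm), and lowest in BAT (479.6 rpmm), limb muscle (543.7 rpmm) and brain (575.8 rpmm). Its log2 differences were 1.46 in spleen (SE 0.144; 1.74 without libraries 37 to 56), 1.22 in marrow, -2.70 in BAT (SE 0.188) and -1.58 in limb muscle, all called, and all but marrow under both other scalings. Its tissue order was most like those of Snord95, Snord73a and Snord15a, other small nucleolar RNAs, with rank correlations of 0.979, 0.979 and 0.976 over 16 tissues among 2406 RNAs. For the 10 snRNA rows the 3 most alike RNAs were unnamed Gm rows throughout, and 15 of these 30 shared a 20-base stretch with the row they resembled.

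The low U73b level in BAT and limb muscle included a separate cluster of libraries, which was noticed after the values were seen. In BAT, 11 of 31 libraries held Rnu73b at 13.55 to 29.8 rpmm, and the other 20 held 122.1 to 1278 rpmm. In limb muscle 6 of 47 libraries held 10.25 to 33.96 rpmm, and the other 41 held 95.3 to 1166 rpmm. Elsewhere at most 2 libraries of a tissue were under 50 rpmm. Snord73a and Snord95 were low in the same BAT libraries, at 6.85 to 16.8 and 26.9 to 64.1 rpmm against 117 to 591.1 and 233.4 to 947 rpmm in the others, without overlap, and Snord15a was at 24.1 to 53.3 rpmm against 37.8 to 195.1, with overlap. In the 6 limb muscle libraries Snord73a and Snord95 were at 3.42 to 18.7 and 18.8 to 66.1 rpmm. The others held 44.95 to 823.2 and 125.6 to 984.5 rpmm, without overlap. Snord15a there was at 10.05 to 45.9 rpmm against 30.7 to 252.4, with overlap. Rnu12 was high in the low-U73b libraries of both tissues: 386.9 to 1076 rpmm against 98.1 to 659.6 rpmm in BAT, and 265.2 to 1308 against 36.9 to 408.9 rpmm in limb muscle, with overlap in both.

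The other snRNAs went in both directions. In those 11 BAT libraries the median of Rnu12 was 778.0 rpmm against 227.3, that of Rnu1b6 551.1 against 303.4, that of Rnu6-ps2 54.7 against 31.25, that of Rnu1a1 11990 against 7340, that of Rnu11 141.6 against 205.8, that of Rnu2-10 2196 against 3785 and that of Rnu6 410.2 against 775.2. In the 6 limb muscle libraries it was 674.3 rpmm against 90.2 for Rnu12, 46.25 against 19.1 for Rnu7, 374.6 against 176.7 for Rnu1b6 and 141.3 against 322.1 for Rnu6. The BAT libraries differed in other ways too. Their depth was lower, at 3.15 to 8.47 M mapped reads against 4.999 to 25.2 M, their summed miRNA level was lower, at a median of 174400 against 349500 rpmm, they came from ages of 3 to 24 months, and they were spread over 6 plates. Depth was also lower in the 6 limb muscle libraries, at 2.68 to 8.225 M mapped reads against 5.784 to 111.2 M. Their summed miRNA level had a median of 615800 against 647200 rpmm. The part of depth and miRNA level was not tested. Without all libraries under 50 rpmm of Rnu73b, the BAT difference of Rnu73b was -1.07 in place of -2.70, that of Rnu12 0.38 in place of 0.99, and that of Rnu6-ps2 0.98 in place of 1.26. The limb muscle difference of Rnu73b was then -1.12 in place of -1.58, and that of Rnu7 -2.36 in place of -2.20. These values carry no test, since the libraries were chosen by the level of a member.

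Age moved few of these RNAs. The question was whether any of them rose or fell over life within a tissue, and the study's measure was used, Spearman's rho with age over the libraries of a tissue, called above 0.5 or below -0.5. Of 160 tests 0 lay above 0.5 and 6 below -0.5, in brain, BAT and GAT, and 21 had an unadjusted permutation p under 0.05. Over all RNAs and tissues 1.2% of tests lay above 0.5 and 1.87% below -0.5, and the members' counts were not tested against these shares. An adjusted p under 0.05 was reached by 5 of the 160: Rnu11, Rnu7 and Rnu6 in brain, Rnu1b6 in GAT and Rnu7 in limb muscle. The shares of all RNAs at the unadjusted and adjusted p thresholds are not given here, so these counts cannot be set against them.

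In brain, U11 and U7 fell with age. Rnu11 had medians of 308.2 rpmm at 1 month (5 libraries, 248.6 to 455.2), 287 at 6 months (4, 265 to 309.2), 241 at 12 months (6, 139.6 to 277.5), 232.7 at 21 months (5, 197.4 to 246.4) and 168 at 27 months (160.2 and 175.8). The highest value and the highest of these medians were at 1 month, the libraries of 27 months were among the lowest, and the 1- and 21-month ranges did not overlap. The rank correlation was -0.60 (n = 39, permutation p = 0.00011, adjusted p = 0.00379; Pearson's r -0.56), and -0.54 without the 2 libraries of 27 months. Rnu7 had medians of 139.9 rpmm at 1 month (95.9 to 187.1), 117.3 at 12 months (87.2 to 142.6), 84.7 at 21 months (56.2 to 118.9) and 52.1 at 27 months (39.6 and 64.5), with overlap between 1 and 21 months. The rank correlation was -0.51 (permutation p = 0.0009, adjusted p = 0.0169; Pearson's r -0.55), and -0.44 without the 2 libraries of 27 months.

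Both brain results depended on the youngest and the set-apart libraries, and on the settings used. Without the libraries of 1 month rho was -0.45 for Rnu11 and -0.42 for Rnu7, and with brain libraries 25 to 36 included it was -0.35 and -0.31, all short of -0.5. With brain libraries 25 to 36 included and the means of the sets of 12 removed, it was -0.475 and -0.48. Rnu7 alone also fell short without the libraries of 24 and 27 months (-0.455), with plate means removed (-0.47), with miRNA scaling (-0.47) and with median-ratio scaling (-0.46). In males alone rho was -0.64 for Rnu11 and -0.58 for Rnu7. Rnu6 in brain had a rho of -0.47 (adjusted p = 0.0353), short of the called size. Rnu7 in limb muscle had a rho of -0.45 (n = 47, permutation p = 0.00169, adjusted p = 0.0278), also short of it, with a Pearson's r of -0.47.

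In the fat depots the falls were in U1. Rnu1b6 in GAT had medians of 370.7 rpmm at 1 month (288.7 to 501.7), 316.3 at 3 months (179.9 to 438.6), 217.1 at 6 months (156.2 to 340.4) and 201.5 at 21 months (179.9 to 225.8), so the libraries of 1 month lay above all those of 21 months and the later ages lay close together. The rank correlation was -0.52 (n = 37, permutation p = 0.00095, adjusted p = 0.0211; Pearson's r -0.50), -0.30 without the libraries of 1 month, and -0.39 with the plate means removed. In BAT rho was -0.57 for Rnu1b6, -0.51 for Rnu1b1 and -0.50 for Rnu1a1 (n = 31, adjusted p = 0.0602 for each, permutation), so these passed the size but not the adjusted p. BAT had 1 library at 1 month and 1 at 6 months, and the median rho of all its RNAs was -0.29, with 5.17% of them below -0.5. Without the 11 BAT libraries of low U73b the 3 values were -0.44, -0.23 and -0.23 (n = 20), and within those 11 they were -0.53, -0.62 and -0.62. In males alone they were -0.44, -0.31 and -0.31. None of these values was tested.

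**Figure D4:**
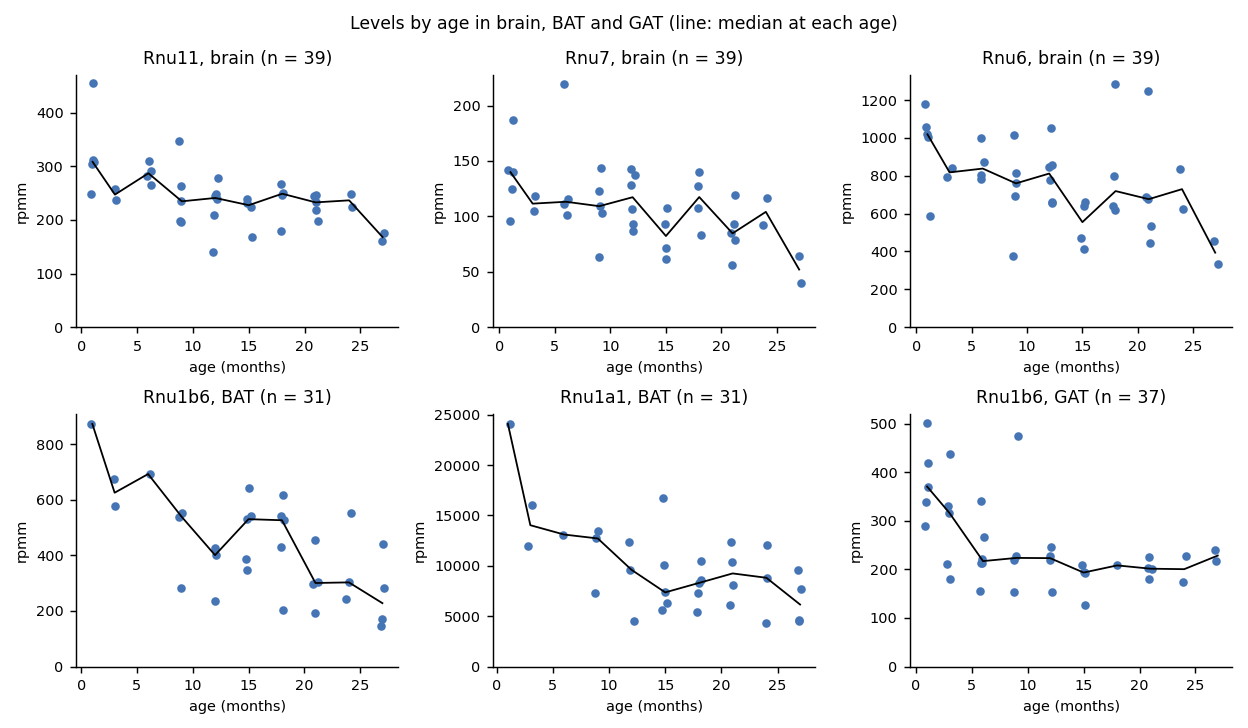
Levels in rpmm against age in months for Rnu11, Rnu7 and Rnu6 in brain, Rnu1b6 and Rnu1a1 in BAT, and Rnu1b6 in GAT. Each point is a library and the line joins the medians. Rnu11 in brain falls from a median of 308.2 rpmm at 1 month to 168 at 27 months, and Rnu1b6 in GAT from 370.7 at 1 month to 193.6 at 15 months.

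The study's contrast of 21 with 3 months gave 1 call. Of 130 tests in the 13 tissues with at least 3 libraries at both ages, Rnu6-ps2 in small intestine was higher at 21 months, against a background of 1.65% of all tests higher and 0.553% lower. Its 5 values at 3 months were 9.73, 11.9, 20.7, 22.01 and 26.5 rpmm, and its 6 values at 21 months were 18.6, 22.4, 28.7, 33.3, 61.5 and 155.6 rpmm. The groups overlapped, and 4 of the 6 libraries at 21 months lay above all those of 3 months. The log2 difference was 1.18 (SE 0.372, adjusted p = 0.0444 by limma), and in small intestine 16.77% of all RNAs were called higher. It was lost without any of 5 single libraries (adjusted p up to 0.27, without 21-month replicate 49), and Rnu6 itself differed by -0.12 (adjusted p = 0.803).

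In spleen the high libraries were unevenly spread over these ages. All 10 rows had higher means at 21 than at 3 months there, with a median log2 difference of 1.83 and none called (Rnu11 2.36, SE 0.915, adjusted p = 0.128). Rnu11 at 3 months was 2.40, 328.7, 440.7, 527.2, 538.9 and 593 rpmm, and at 21 months 315, 379.1, 418.5, 2070, 3578 and 4061 rpmm. The 3 highest libraries of 21 months had title numbers from 37 to 56, and the lowest of 3 months was spleen library 1. Without numbers 37 to 56 the median difference of the 10 rows was 0.82, with spleen library 1 still included. Apart from library 1, Rnu11 at 3 months was 328.7 to 593 rpmm, against 315 to 418.5 rpmm at 21 months without numbers 37 to 56. In pancreas, whose 3-month libraries include number 2, all 10 rows were higher at 21 months with a median of 1.07, as they were in heart (1.34) and SCAT (0.81). All 10 were lower at 21 months in GAT (median -0.59), MAT (-0.40) and lung (-0.48), but in lung all 10 were higher without libraries 37 to 48 (median 0.50). None of the rows was called in these 6 tissues or in spleen.

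Sex gave no call. Of 160 tests of males against females at 1 to 21 months, with age in the model, none passed an adjusted p under 0.05 by limma, 14 had an unadjusted p under 0.05, and the test on reads with edgeR called 0. Over all RNAs 0.396% of tests were called higher in males and 0.454% lower. The smallest adjusted p was that of Rnu1b6 in limb muscle, -0.71 on the log2 scale (SE 0.265, adjusted p = 0.0751).

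Shared circulation between young and aged mice was asked of the same RNAs in the parabiosis cohort. In heart, Rnu6 was lower in aged mice joined to young mice than in aged mice joined to aged mice. HA libraries ran from 277.2 to 645.2 rpmm with a median of 384.9 (n = 7), IA libraries from 329.7 to 1001 with a median of 634.6 (n = 8), and the medians of HY and IY were 510.8 and 491.9 rpmm. The groups overlapped, with HA below both young groups in the median and IA above them. The log2 difference of HA from IA was -0.71 (SE 0.196, adjusted p = 0.0201 by limma), 1 call of 60 tests, against a background of 0.705% of all tests higher and 0.352% lower, and 4.39% higher and 2.23% lower in heart. With the joined pair as a block it was no longer called. Rnu7 in heart differed by -0.63 (adjusted p = 0.0550) and Rnu11 by -0.28 (adjusted p = 0.313), neither called. The remaining U snRNA rows in heart were also lower in HA than in IA, except Rnu6-ps2 (0.21), and none was called. In the other 5 tissues Rnu7 ran from -0.30 in liver to 0.95 in GAT (adjusted p = 0.413) and Rnu11 from 0.07 in kidney to 0.68 in MAT (adjusted p = 0.658), none called.

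**Figure D5:**
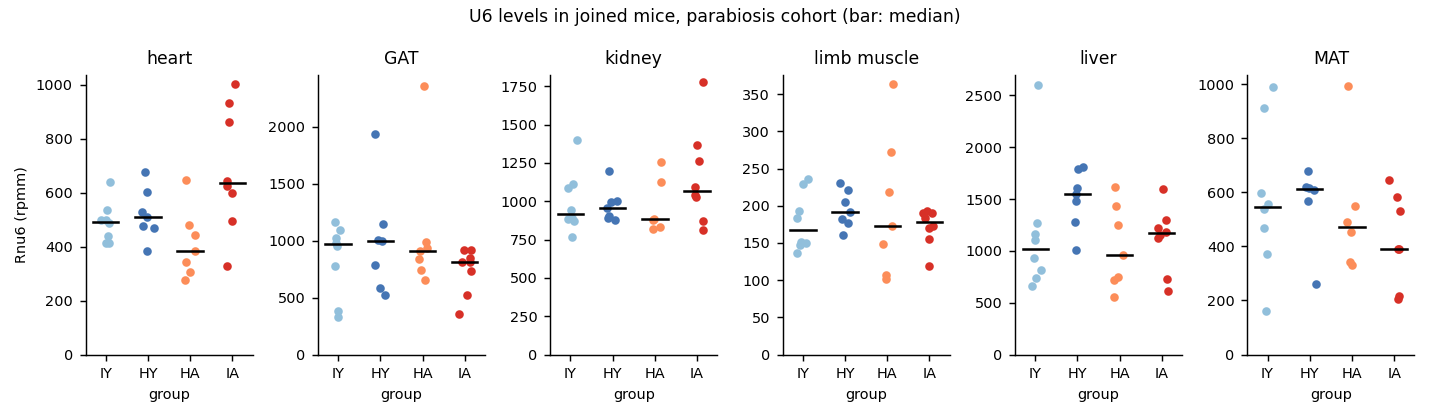
Rnu6 in rpmm in the 4 parabiosis groups of 6 tissues, each on its own axis from 0, with a point for each library and a bar for the median. In heart the HA libraries have a median of 384.9 rpmm and the IA libraries of 634.6 rpmm, and the groups overlap.

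The other contrasts gave no call of any member. HY against IY gave 0 of 60 tests past the threshold of limma (1 with an unadjusted p under 0.05, and 0 calls by edgeR), where 0.0% of all RNAs were called higher and 0.0% lower. IA and IY gave 0 calls (9 with an unadjusted p under 0.05, and 1 by edgeR), with 0.601% of all tests higher and 0.829% lower. Most of those 9 were in heart, where every U snRNA row was higher in IA, from 0.20 for Rnu11 to 0.82 for Rnu6-ps2 on the log2 scale. HA and HY gave 0 calls (4 with an unadjusted p under 0.05, and 0 by edgeR), with 2.02% higher and 1.03% lower. These contrasts share groups, so their values are not independent of each other. Levels across tissues in this cohort, which was normalised separately, put limb muscle last for all 11 RNAs, and it was also last of these 6 tissues in the aging cohort for 9 of them, the exceptions being Rnu1b6 and Rnu6-ps2. Rnu7 in limb muscle had a median of 13.7 rpmm (7.85 to 31.6), against 89.7 rpmm in liver (33.3 to 195.1).

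RNAs that work beside the snRNAs were taken from lists by name. Scarna RNAs guide the modification of snRNAs in Cajal bodies, U3 RNAs process ribosomal RNA, and Rmrp, Terc, Snord118 and Snord13 were the other structural RNAs listed. In spleen 5 of 9 Scarna rows, 4 of 4 U3 rows and 3 of 4 others were called higher, where 12.3% of all RNAs were, and the counts were the same without spleen libraries 37 to 56, where 8.82% of all RNAs were. The U3 rows held near-equal values in pairs: the 2 rows of Rnu3a differed by 2.011 each, and Rnu3b3 and Rnu3b4 by 1.495 and 1.497. In pancreas 8 of 9 Scarna rows were called lower, where 22.74% of all RNAs were. The tissue calls of the lists are in rpmm only. Their values under miRNA or median-ratio scaling are not given here, and the pancreas calls of the snRNA rows depended on the scaling. Over all tissues the median log2 difference of the Scarna rows was -0.01, with 12 of 144 tests called higher and 14 lower (8.22% and 6.99% of all tests). With age, 7 of 144 Scarna tests had a rho above 0.5, 3 of them for Scarna3a and 2 for Scarna3b, and 1 had a rho below -0.5, for Scarna10, where 1.2% and 1.87% of all tests did. The list's counts were not tested against these shares. No U3 or other structural row was called with age in 64 and 53 tests. In the contrast of 21 with 3 months none of the 3 lists had a call.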

How the data were processed

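Small RNA libraries of the aging and parabiosis cohorts were used as deposited by the authors, a normalised signal (rpmm, reads per 1000000 mapped reads). The authors ligated and sequenced RNA in single-end reads, mapped them with Bowtie inside miRMaster to listed noncoding RNAs of miRBase, GtRNAdb, RNACentral and Ensembl, dropped libraries with few aligned reads and RNAs that stayed under 1 rpmm in all libraries. The whole reads behind the values were recovered from the smallest value above 0 in each library, and 100% of low values of RNAs other than miRNAs came out whole within 0.05 reads. Columns of 3 libraries were not used, because their names differ from the labels.

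Here rows with identical values were counted once. RNAs at 1 rpmm or more in at least 10% of a tissue's libraries were tested. Levels were compared as log2(rpmm + 1) with limma 3.58.1 (eBayes with trend) in R 4.3.3, and Benjamini-Hochberg adjustment ran over all RNAs of a tissue. Correlations used 100000 shuffles, the smallest p of which is 1e-05. Neighbouring tissues were compared by a two-sided permutation test of equal size. The test on recovered reads was edgeR 4.0.16. The tests were tried on simulated data first. The members were named by the rule that opens the results, and every member is named, while the lists were set by gene name. Members and lists were chosen with earlier results of these data known. Alternatives were scalings, filters, pseudocounts, covariates, left-out libraries and blocks, and the omission of lung libraries 37 to 48 and spleen libraries 37 to 56, added after the data were seen. The labels name separate libraries and not separate mice throughout, so p-values measure the spread between libraries. Same-numbered joined partners were checked for pairing: the consensus correlation ran from -0.186 in MAT to 0.29 in limb muscle over 15 pair numbers a tissue. With 29 libraries in kidney and 27 in MAT, not every pair number there had both partners. No interaction of tissue and age was fitted, since no member was called in opposite directions. The sequences and positions of the U6 rows are not reported here.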

Additional observations from a re-analysis of the deposited data

Results flagged for a closer look

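Of 39 groups of 4 to 10 libraries that were looked at for a single library far from the rest, 2 held one, where chance gives about 1 in 20. Rnu6-ps2 in small intestine at 21 months reached 155.6 rpmm in 1 of 6 libraries, a gap of 0.687 of the group's range from the next. Rnu7 in brain at 6 months reached 219 rpmm in 1 of 4 libraries, a gap of 0.884 of the range. The first is the library whose omission took the contrast of 21 with 3 months from 1.18 to 0.79 on the log2 scale (adjusted p = 0.27 by limma).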

How the results depend on the processing

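Counts of called U snRNA tests moved as follows. The 25 calls across tissues became 52 with miRNA scaling and 13 with median-ratio scaling. Of 82736 tests of all RNAs, 12584 were called in the main setting, 18384 with miRNA scaling and 10797 with median-ratio scaling. The pancreas values of Rnu1a1 and Rnu1b1 turned to 0.1423 and 0.144 on the log2 scale with miRNA scaling. The 1 call of 21 against 3 months became 0 with miRNA scaling, median-ratio scaling, a pseudocount of 0.1, no filter, the set of 12 or the plate as a covariate, and ran from 0 to 5 when single libraries were left out. Its highest counts came without SCAT 3-month replicates 43 or 48 (4 and 5 calls) and without pancreas 3-month replicate 54 (4 calls). Sex gave 1 call with miRNA scaling and 1 with the set of 12 as a covariate. Of all RNAs, 1381 of 55017 and 1397 of 55542 tests were called there. HA against IA gave 2 calls at a mean of at least 10 rpmm and 2 by edgeR, where 212 of 8945 and 227 of 19292 tests of all RNAs were called. With the joined pair as a random block it gave 0. IA against IY gave 4 calls with miRNA scaling, 1 at a mean of at least 10 rpmm, 1 with identical rows kept apart and 1 by edgeR. The 6 age correlations became 2 with median-ratio scaling, 2 with plate means removed, and 2 (1 above and 1 below) without 1 month. The shares of all RNAs passing in these age settings are not given here. Settings that used the sets of 12 also included the brain and kidney libraries kept apart. Of the 6 age correlations themselves, 4 fell short with the means of the sets of 12 removed and 3 in males alone. Without 24 and 27 months 3 fell short, and 5 did with plate means removed or without 1 month. The cause was not tested. Over all RNAs and tissues, edgeR called 1476 tests for 21 against 3 months where limma called 974. Depth limits the low rows most: Rnu6-ps2 had a median of 14.7 rpmm.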
